A study of Danio rerio with 67 samples.

Results

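The gene cahz (ENSDARG00000011166), a carbonic anhydrase of zebrafish, was followed through sorted spinal cord cells of adult fish, and was 1 of 32266 genes in the count table. On genome build GRCz10 it lies on chromosome 2 from 29493850 to 29501875, on the minus strand, with 6 merged exons of 1919 bases in all and no other gene overlapping it. It was picked because earlier results on the same cells gave less of its RNA in the lesion group, so its difference between the groups and its presence in myelin-expressing cells are given as description and support nothing. The cells were divided by their level of plp1b (ENSDARG00000011929, chromosome 5 from 22764321 to 22776298), a myelin proteolipid gene, into those at or above 10000 CPM and those under it. CPM, the usual scaled read counts, are the reads of a gene relative to the total of reads on genes in the same cell, or in the summed cells of a group.

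Carbonic anhydrases catalyse the reversible hydration of carbon dioxide to bicarbonate and a proton. In mammals, cytosolic carbonic anhydrase II is abundant in oligodendrocytes, the cells that wrap axons in myelin, and red blood cells also hold large amounts of such enzymes, next to haemoglobin. In zebrafish embryos cahz is known as a gene of the blood, and red cell RNA is very rich in globin transcripts. The comparison with globins asks whether cahz reads in the sorted cells came together with globin reads.

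All cells came from adult fish of the line Tg(olig2:eGFP), in which green fluorescent protein is made under control of the olig2 gene, whose product directs the making of oligodendrocytes and motor neurons, and the labels call them OPCs (oligodendrocyte progenitor cells). The 35 sham cells came from fish operated on in the same way but with the cord left intact, and the 32 lesion cells from fish 7 days after transection of the cord, with pieces of 9 cords pooled for each group. Each group is therefore 1 sample, no test was possible, and intervals cover counting error only. Those of levels are over reads without molecular identifiers that are not independent molecules. Those of shares are over cells of 1 pool, which are not replicates. On the plate, columns 1 to 6 held sham cells and columns 7 to 12 held lesion cells, so operation, pool and plate columns cannot be told apart.

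Sham cells had a median of 550763 gene reads (245408 to 771417) and lesion cells 431348 (280129 to 620323). OLIG2 was detected, at 5 or more reads, in all 67 cells, whereas PDGFRA, a defining OPC gene in mammals, had 0 reads and CSPG4 was detected in 1 cell. The plp1b level separated 46 high cells from 21 low cells, with no cell between 614 and 19557 CPM, the values nearest to the threshold on either side. The 24 genes of the myelin list, plp1b included, together took 93463 CPM or more in every plp1b-high cell. In every plp1b-low cell they took 7498 CPM or less. Part of this gap follows from the division by plp1b itself. mbpa, a myelin gene not used for the division, was at 8382 CPM or more in every plp1b-high cell and 1394 CPM or less in every plp1b-low cell. Most of the sorted cells thus carried transcripts of myelinating oligodendrocytes despite the label. PDGFRA and CSPG4 do not stand for the whole OPC list. Of its 25 genes, 6, OLIG2 included, were detected in at least 50% of the 21 plp1b-low cells. bcan, 1 of these, was detected in 6 sham and 13 lesion plp1b-low cells, and in 2 sham and 1 lesion plp1b-high cells. SOX10 was detected in 6 sham and 8 lesion plp1b-low cells, and in 23 sham and 15 lesion plp1b-high cells. High cells made up 29 of 35 sham cells (82.9%) and 17 of 32 lesion cells (53.1%).

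cahz was an abundant transcript of the plp1b-high cells and close to absent from the others. Of its 26034 reads in all cells, 99.5% fell in the plp1b-high cells, which held 23688083 of the 32400291 reads on all genes. By group, 22604 cahz reads were in plp1b-high cells of sham and 3302 in those of lesion. Its summed level in plp1b-high cells was 1399 CPM (95% Poisson interval 1381 to 1417) in sham and 438 CPM (424 to 454) in lesion. In plp1b-low cells it was 45.8 CPM (37.9 to 54.9) in sham, nearly all from 1 cell, and 1.63 CPM (0.781 to 2.996) in lesion. The order of these 4 levels was the same for the share of cells with cahz detected. cahz was detected in 25 of 29 plp1b-high sham cells (86.2%, Clopper-Pearson 95% interval 68.3 to 96.1) and in 11 of 17 plp1b-high lesion cells (64.7%, 38.3 to 85.8). Among plp1b-low cells it was detected in 2 of 6 sham cells (33.3%, 4.33 to 77.7) and in 1 of 15 lesion cells (6.67%, 0.169 to 31.9). These intervals of shares count cells, which are not replicates of a group, so they do not compare sham with lesion.

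**Figure D1:**
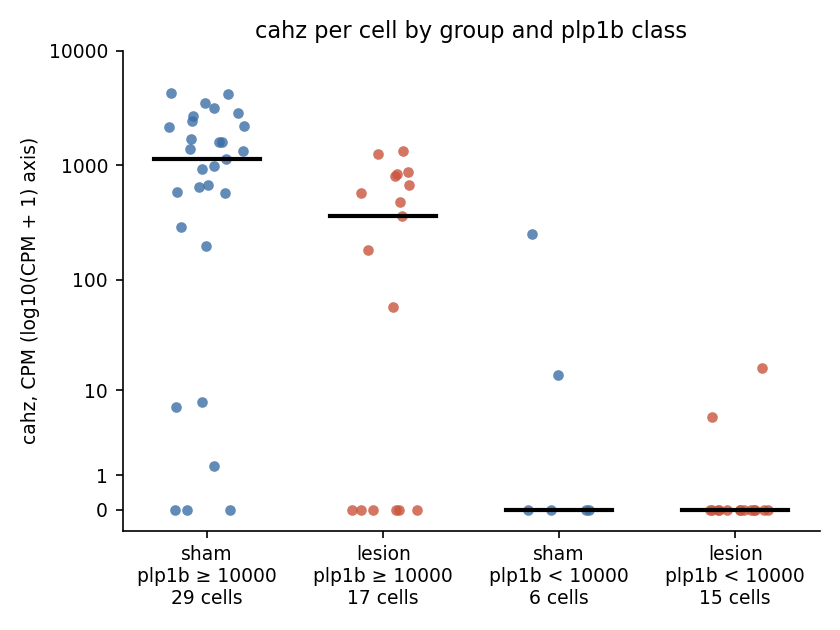
Level of cahz in each cell, 1 point a cell, on a log10(CPM + 1) axis, by group and plp1b class, with a black bar at the median of each class. Sham plp1b-high cells reach 4262 CPM and lesion plp1b-high cells 1336 CPM, and most plp1b-low cells lie at 0.

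Within the plp1b-high cells the level was far from even. In the 29 sham cells the lowest was 0, the median 1147 CPM and the highest 4262 CPM, with a mean of 1419 and an SD of 1295 over cells. In the 17 lesion cells the lowest was 0, the median 360 CPM and the highest 1336 CPM, with a mean of 439 and an SD of 462. The ranges of the groups overlap over their whole lower part. However, 15 sham cells reached 1000 CPM against 2 lesion cells, and 13 sham cells lay above the highest lesion cell. At the other end, 6 sham and 6 lesion cells had under 10 CPM. The sham cells at that end were cells 20, 24 and 25 with 0 reads, cell 23 with 1 read, cell 26 with 5 and cell 15 with 6. The lesion cells at that end, cells 21, 24, 27, 29, 31 and 32, had no cahz read at all, at depths of 326470 to 620323 gene reads, so that the lower level in the lesion group went with both a larger share of cells at 0 and a lower top of the range. Among lesion plp1b-high cells that had cahz, the levels ran from 58.1 and 181 CPM through 360, 478, 581, 675, 817, 842 and 884 to 1253 and 1336 CPM.

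Summed over all cells, cahz was at 1213 CPM (1197 to 1229) in sham and 242 CPM (234 to 251) in lesion, a log2 ratio of lesion over sham of -2.32 (counting interval -2.38 to -2.27), or 4.99-fold lower after adding 1 CPM to each level. Of 9870 genes measured over all cells, 21.4% were at least 2-fold lower in lesion, and 6.04% were as low as cahz or lower. Within plp1b-high cells, where the share of such cells no longer enters, the log2 ratio was -1.67 (-1.73 to -1.62), or 3.19-fold lower. There, 26.8% of 7014 measured genes were at least 2-fold lower in lesion and 15.7% were as low as cahz or lower. Among abundant genes, at 1000 CPM or more in their higher group, 17.6% of 142 were at least 2-fold lower in lesion over all cells. In plp1b-high cells 10.3% of 136 were so. As low as cahz or lower were 2 genes (1.41%) and 6 genes (4.41%), with cahz itself counted among them. This cut was made after the values were seen. Since cahz passed it through its sham level alone (1213 and 1399 CPM, against 242 and 438 CPM in lesion), these shares support nothing. The median log2 ratio of all measured genes was 0.19 over all cells and -0.04 in plp1b-high cells, so relative to it cahz stood at -2.51 and -1.64.

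**Figure D2:**
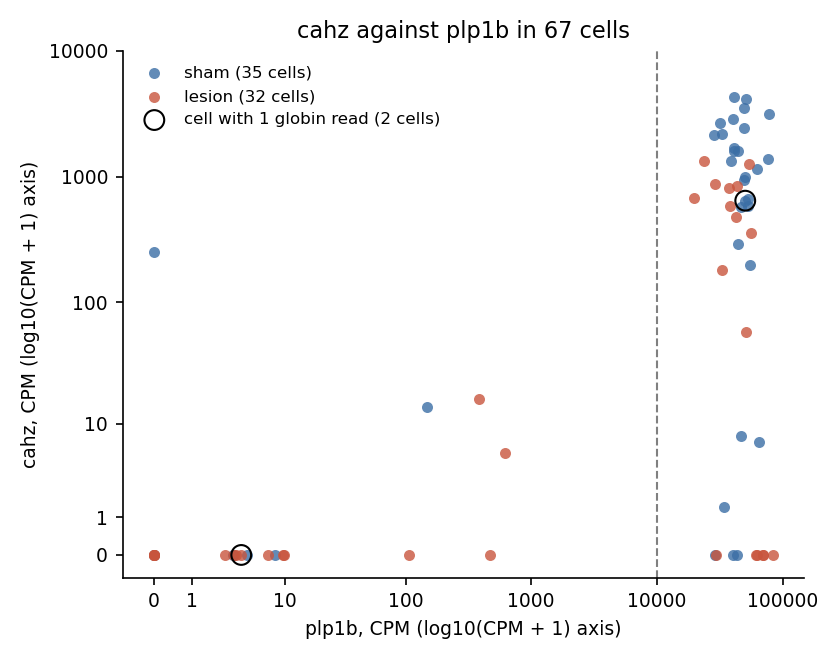
cahz against plp1b in each of 67 cells, both on log10(CPM + 1) axes, coloured by group, with a dashed line at 10000 CPM of plp1b and rings around the 2 cells with a globin read. Nearly all cells with cahz lie right of the line, and the 6 lesion cells right of the line without cahz include the 5 lesion cells with the most plp1b.

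The ratio of cahz between the groups was unlike that of plp1b, which defines the class, and those of mbpa and cd59a, which do not. plp1b itself, by which these cells were selected, was at 47055 CPM in sham against 46809 CPM in lesion plp1b-high cells (log2 ratio -0.01). mbpa, a myelin basic protein gene, was at 36264 and 21750 CPM (-0.74), and cd59a, a membrane-bound complement inhibitor gene, at 61660 and 67337 CPM (0.13). Of the 22 genes on the myelin list measured in these cells, 4 were at least 2-fold lower in lesion, where 26.8% of all measured genes were so, 1 was at least 2-fold higher, where 24.3% of all were so, and the median was 0.13. The lower genes were tuft1a at 1993 and 195 CPM, TSPAN7 at 439 and 94.7 CPM, NFASC, a cell adhesion gene of the axon-glia contact, at 498 and 140 CPM, and TMEM98 at 28.5 and 13.01 CPM. The higher gene was mbpb, the other myelin basic protein gene, at 470 and 3424 CPM.

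Set against plp1b in the same cell, cahz had a median of 19.1 reads per 1000 plp1b reads in sham plp1b-high cells (0 to 103) and 6.46 in lesion plp1b-high cells (0 to 56.7). Over the 29 sham plp1b-high cells the Spearman correlation of cahz with plp1b was 0.00, and with mbpa 0.28. Over the 17 lesion plp1b-high cells it was -0.64 with plp1b, near the bottom of the 2828 genes ranked there (rank 2817), and 0.00 with mbpa. In lesion, the 11 cells with cahz had 19557 to 55802 CPM of plp1b and the 6 cells without it had 29567 to 83675 CPM. At a cut of 60000 CPM, set after seeing these values, 0 of 5 lesion cells above it and 11 of 12 under it had a cahz read, against 4 of 4 and 22 of 25 in sham. These correlations describe cells that share their pool, plate and, within a cell, 1 total to which all levels are scaled, and gene reads per cell correlated with cahz at -0.14 in sham and 0.04 in lesion plp1b-high cells.

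Globin genes were almost without reads, in cells with cahz as in cells without it. The table holds 17 globin genes, 14 of them haemoglobin genes, and 15 of the 17 had no read in any cell. Over all 67 cells and 32400291 gene reads there were 2 globin reads. The read of hbae1.3, an alpha-type globin gene, was in sham cell 9, which had 256 cahz reads (646 CPM), and the read of hbae5, another alpha-type gene, was in lesion cell 5, which had no cahz. Thus 1 of the 39 cells with cahz detected held a globin read (2.56%, interval 0.0649 to 13.5) and 38 held none, beside 26030 cahz reads in the same 39 cells. No cell reached 5 reads of any globin.

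The main globin locus lies on chromosome 3 from 54836628 to 54893256 and holds 13 genes of the table, 10 of them named as globins. These include hbaa1, hbaa2 and 4 genes that the name table spells HBE1, and all 13 genes together had 1 read. Several globin genes are near-identical or overlap, and counting kept only reads with a mapping quality of at least 1, so reads that fit several copies may have been lost before deposit. Genes of the red cell other than globins were therefore read as well. alas2, which makes the first step of haem synthesis in red cells, had 1 read in all cells, in lesion cell 29, which had no cahz. The genes named SLC4A1, for the anion exchanger of the red cell membrane (band 3), had 0 reads (ENSDARG00000012881) and 1 read (ENSDARG00000024560). gata1a and klf1, transcription factors of the red cell lineage, had 3 reads each, and RHAG, TAL1, tfr1a, cldng and CREG1 had none.

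**Figure D3:**
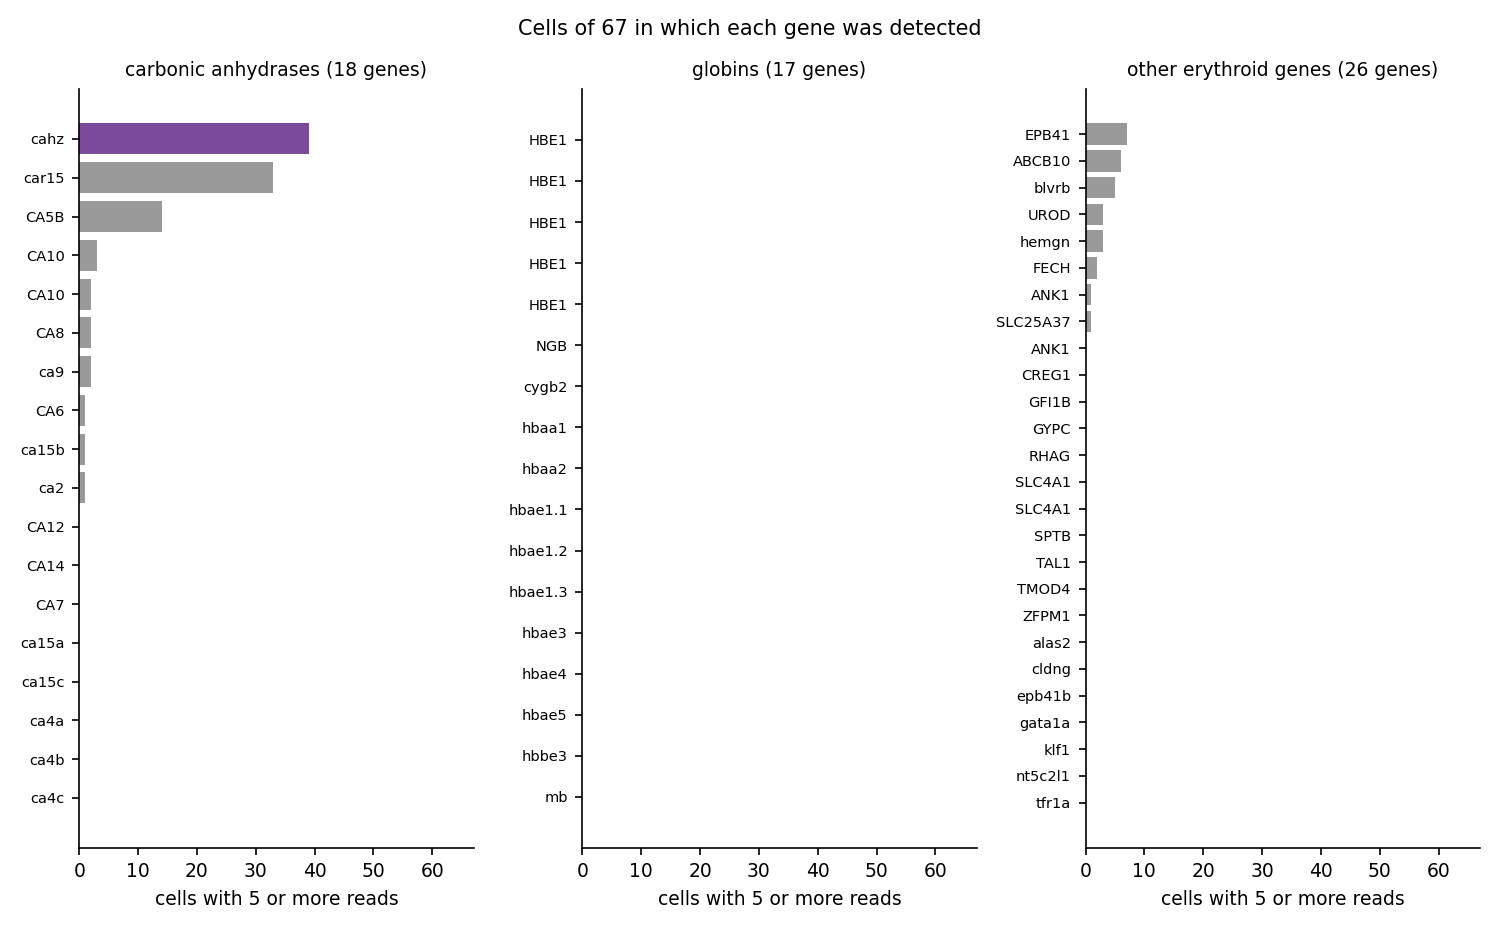
Number of the 67 cells in which each carbonic anhydrase, globin and other erythroid gene was detected at 5 or more reads, as bars from 0. cahz was detected in 39 cells and leads its family, no globin gene was detected in any cell, and no erythroid gene in more than 7 cells.

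Of the 26 erythroid genes other than globins, 18 had 5 reads or fewer in all cells together, among them GYPC, epb41b, TMOD4, SPTB, ZFPM1, GFI1B, nt5c2l1 and 1 of the genes named ANK1 (ENSDARG00000074777). The remaining 8 were detected in 1 to 7 cells each, and most are also used outside red cells. EPB41, for a membrane skeleton protein, was detected in 7 cells, 1 with and 6 without cahz. ABCB10, a mitochondrial transporter gene, was detected in 6 cells, 3 with and 3 without cahz, and blvrb, for a biliverdin reductase, in 5 cells, 4 with and 1 without. UROD, for a haem synthesis enzyme, was detected in 3 cells, 1 with and 2 without cahz, and FECH, for the last enzyme of that path, in 2 cells, both with cahz. hemgn, a gene of blood cell nuclei, was detected in 3 cells, 1 with cahz, and its highest level was 199 CPM in sham cell 23, which had 1 cahz read. SLC25A37, the mitochondrial iron carrier, and ANK1 (ENSDARG00000059093), for an ankyrin, were detected in 1 cell each, both with cahz. At least 1 of these genes was detected in 10 of the 39 cells with cahz and in 12 of the 28 cells without it, and never more than 2 in a cell. Of the 8 genes, EPB41, ABCB10, blvrb, UROD and hemgn were each detected both in cells with and in cells without cahz. FECH, SLC25A37 and that ANK1 gene were detected in cells with cahz alone, but in only 2, 1 and 1 cells. With 39 cells with cahz and 28 without it, so few cells cannot tell a link with cahz from none. The cell with SLC25A37, sham cell 26, had only 5 cahz reads (6.86 CPM). How often other genes detected as rarely fall in cells with cahz alone was not tested.

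The few plp1b-low cells with cahz reads differed from each other. Sham cell 34 held 112 cahz reads (254 CPM) with 0 plp1b reads, a level within the lower part of the plp1b-high range. It had 12 of 25 OPC list genes detected, among them OLIG2 at 3787 CPM and SOX10, a transcription factor of the lineage, at 676 CPM. OLIG2 was detected in all 67 cells and SOX10 in both plp1b classes, so neither sets it apart. It also had 7 of 22 radial glia list genes, led by FABP7 at 3610 CPM, and 6 of 23 neuron list genes, led by STMN2 at 1478 CPM. Of 24 myelin list genes it had TSPAN7 alone, a gene higher in plp1b-low than in plp1b-high cells of both groups. It was also the cell with the most carbonic anhydrase genes detected, 6 of 18. It had no globin read, and of the 26 erythroid genes other than globins it had blvrb detected, at 195 CPM. The other 3 cells had few cahz reads and some plp1b: sham cell 33 had 6 reads (13.95 CPM) with 146 CPM of plp1b, lesion cell 4 had 7 reads (16.4 CPM) with 386 CPM of plp1b, and lesion cell 3 had 3 reads (5.42 CPM) with 614 CPM of plp1b. Per 1000 plp1b reads that came to 95.2, 42.4 and 8.82 cahz reads. In plp1b-high cells the range was 0 to 103 in sham (median 19.1) and 0 to 56.7 in lesion (median 6.46). Each of the 3 values lies within the range of its group, but both ranges start at 0 and so exclude little. The other 17 plp1b-low cells, 4 sham and 13 lesion, had no cahz read.

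Next to cahz, the carbonic anhydrase family was represented in plp1b-high cells by car15 (ENSDARG00000060829), named for a membrane-anchored form of the enzyme. Per kilobase of exon, cahz stood at 729 CPM and car15 at 280 CPM in sham plp1b-high cells, while in lesion plp1b-high cells they stood at 228 and 221 CPM. car15 was at 250 CPM in sham against 197 CPM in lesion plp1b-high cells (log2 ratio -0.34), and it was detected in 20 of 29 and 11 of 17 of them. Of the plp1b-low cells, 1 of 6 in sham and 1 of 15 in lesion had it, so its distribution over the classes resembled that of cahz while its ratio between groups was smaller.

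The pair did not mark different plp1b-high cells in any clear way. In sham, 18 cells had both detected, 7 cahz alone, 2 car15 alone and 2 neither. In lesion, 7 cells had both, 4 cahz alone, 4 car15 alone and 2 neither. Over 29 sham and 17 lesion plp1b-high cells the Spearman correlation between the pair was -0.16 and -0.11. Sham cell 23, with 1 cahz read, had the highest car15 level of all cells at 964 CPM, and the lesion cells with the most cahz, 25 and 30, had no car15 read. At least 1 of both genes was detected in 42 of the 46 plp1b-high cells.

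CA5B (ENSDARG00000101778), whose mammalian counterpart is a mitochondrial enzyme, went the other way in level. It had 8.73 CPM in sham against 64.1 CPM in lesion plp1b-high cells (log2 ratio 2.74), where 24.3% of measured genes were at least 2-fold higher in lesion. Among plp1b-high cells 2 of 29 in sham and 7 of 17 in lesion had it detected, and among plp1b-low cells 1 of 6 and 4 of 15, so it was found in both plp1b classes. Its highest value, 622 CPM, was in lesion cell 25, the lesion cell with the most cahz. The median of the 17 lesion plp1b-high cells was 0 and their upper quartile 58.0 CPM, so the lesion level also leaned on few cells. In sham, 118 of its 146 reads were in cell 27, and without the highest cell of each group the log2 ratio over all cells was 3.95 in place of 2.70.

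The other members appeared in plp1b-low cells or hardly at all. CA8, whose mammalian counterpart has no enzyme activity, was detected in 2 lesion plp1b-low cells, with 268 reads there and 0 in sham. The 2 genes named CA10, also without activity in mammals, had nearly all reads in plp1b-low cells. ENSDARG00000052644 had 69 reads in plp1b-low cells of sham, all in 1 cell, and 118 in those of lesion, in 2 cells. That was 26.8 and 19.2 CPM there (log2 ratio -0.46). Over all cells its log2 ratio was 1.02, which became 0.81 with TMM factors. Without the highest cell of each group it was 2.11, with 1 read left in sham, in a plp1b-high cell. ENSDARG00000009568 had 60 reads in sham plp1b-low cells. In sham plp1b-low cells CA6, known as a secreted enzyme, had 58 reads, ca9, known as a membrane-bound enzyme, had 47 reads and was detected in 2 cells, and ca2 had 19 reads in 1 cell. ca2 carries the name of the mammalian oligodendrocyte enzyme and had no read in sham plp1b-high cells. ca15b had 6 reads in 1 sham cell, ca4a, ca4b, ca4c, ca15a and ca15c had 1 read each, and CA7, CA12 and CA14 had none. Of the family, 4 genes had enough reads to be measured over all cells, 2 at least 2-fold higher (31.5% of all genes) and 1, cahz, at least 2-fold lower in lesion. In plp1b-high cells 3 were measured, with CA5B higher, cahz lower and car15 within 2-fold.

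Bicarbonate, protons and lactate are moved across membranes by transporters whose work is tied to that of carbonic anhydrases. Of 46 such genes, aquaporins and chloride cotransporters included, 10 were measured in plp1b-high cells. Of these, 2 stood at 2-fold or more above sham (24.3% of all measured genes) and 1 as far below it (26.8%), with a median log2 ratio of 0.15. SLC4A4 (ENSDARG00000013730), a sodium bicarbonate cotransporter gene, was at 87.3 CPM in sham and at 188 CPM in lesion plp1b-high cells (log2 ratio 1.099). SLC9A8, for a sodium-proton exchanger of organelles, was at 72.6 and 83.7 CPM, and BSG, for a protein that partners monocarboxylate transporters, at 54.3 and 59.0 CPM. SLC12A4, a potassium chloride cotransporter gene chosen after its values were seen, was at 0.06 and 40.8 CPM, detected in 0 sham and 3 lesion plp1b-high cells. SLC16A1 (ENSDARG00000068572), a monocarboxylate transporter gene chosen in the same way, was at 47.4 and 16.5 CPM, detected in 3 and 2 such cells. Over all cells 15 of these genes were measured, 4 of them 2-fold or more above sham (31.5% of all measured genes) and 6 as far below it (21.4%), with a median of -0.12.

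Markers of other cell types were set beside the lower cahz level, and their part in it was not tested. Over all cells 31.5% of all measured genes were at least 2-fold higher in lesion and 21.4% at least 2-fold lower. The radial glia list had 11 of 16 measured genes past 2-fold higher and 3 lower (median log2 ratio 1.47), the neuron list 9 and 0 of 12 (1.65) and the OPC list 9 and 2 of 20 (0.35), alongside the larger share of plp1b-low cells. In plp1b-high cells fewer genes of these lists were measured, 10, 3 and 9, and their medians were 0.13, -0.04 and -0.11. Of them 3, 1 and 1 were at least 2-fold higher in lesion (24.3% of all measured genes). At least 2-fold lower were 2, 1 and 2 (26.8%). The microglia and macrophage list had 2 of 23 genes measured in plp1b-high cells, apoeb at 547 CPM in sham against 8634 CPM in lesion, and AIF1L at 26.6 and 120 CPM. Its summed level ran from 0 to 3051 CPM in sham and from 846 to 31012 CPM in lesion plp1b-high cells, while csf1ra, P2RY12, laptm5 and SPI1, which define microglia, were at 0. MPEG1 (ENSDARG00000043093), a macrophage gene, and apoc1, an apolipoprotein gene, were at 0 in sham and at 11.2 and 8.90 CPM in lesion plp1b-high cells, each detected in 1 cell. The correlation of cahz with apoeb was -0.02 over 29 sham and -0.51 over 17 lesion plp1b-high cells. Over the same lesion cells it was -0.64 with plp1b and -0.56 with mbpb, but -0.004 with mbpa, so a value of that size was not particular to apoeb. The lists of endothelium and pericyte, skeletal muscle and Schwann cell had 0 genes past 2-fold among 2, 1 and 5 measured in plp1b-high cells.

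The genes whose level over the 67 cells was most like that of cahz, among 2297 genes detected in at least 25% of cells, were si:dkeyp-73d8.9 (Spearman correlation 0.73), si:dkeyp-73d8.8 (0.70), wnk4b (0.70), si:dkeyp-73d8.6 (0.69), TCIM (0.69), proza (0.69), mbpa (0.67), tpm4a (0.65), crp1 (0.64) and stxbp6l (0.64). The median over the ranked genes was -0.05 and their 95th percentile 0.38. wnk4b is named for a kinase family that controls chloride cotransporters, tpm4a for a tropomyosin and stxbp6l for a syntaxin-binding protein. The 3 genes named si:dkeyp-73d8 lie next to each other on chromosome 2 between 32638459 and 32660520, and where their copies are alike, reads may be shared or lost among them. Only mbpa is on the myelin list.

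All 10 had little RNA in plp1b-low cells, with highest summed levels of 26.03 CPM in sham (stxbp6l) and 234 CPM in lesion (mbpa). In plp1b-high cells all 10 were lower in lesion, 4 of them at least 2-fold, as were 26.8% of all measured genes, with a median log2 ratio of -0.73. TCIM was at 1465 CPM in sham against 457 CPM in lesion plp1b-high cells (log2 ratio -1.68), si:dkeyp-73d8.9 at 318 and 105 CPM (-1.59), wnk4b at 722 and 267 CPM (-1.43) and proza at 2283 and 881 CPM (-1.37). Since likeness over all cells takes in both the plp1b classes and the groups, the ranking itself draws on these differences, and the shared direction is no independent result.

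**Figure D4:**
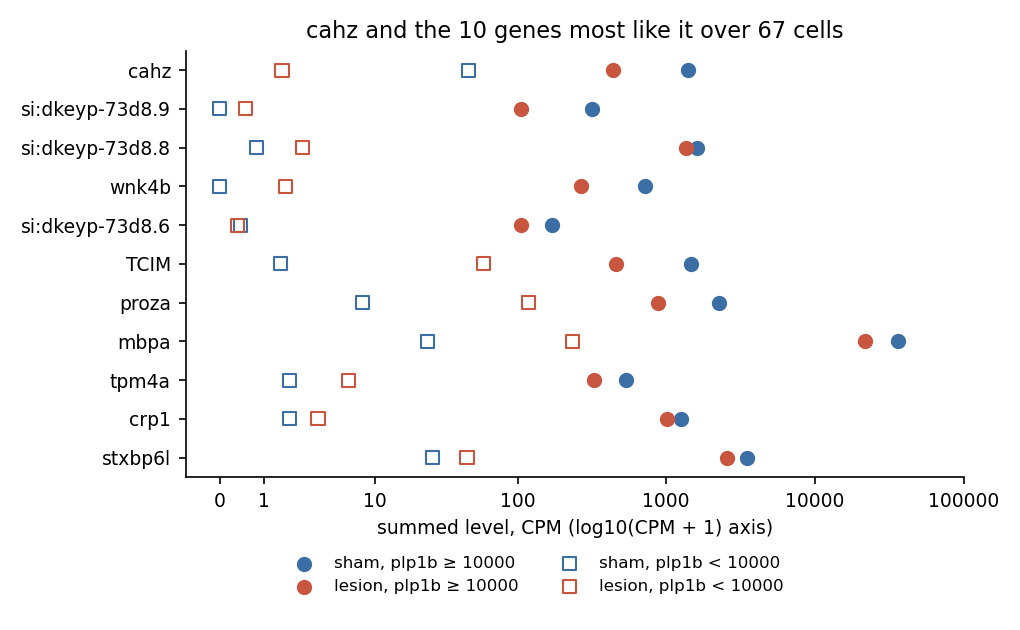
Summed level of cahz and of the 10 genes most like it over 67 cells, on a log10(CPM + 1) axis, with filled circles for plp1b-high and open squares for plp1b-low cells, coloured by group. For every gene shown both circles lie right of both squares, and the lesion circle lies left of the sham circle.

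Within a single group the highest ranks went to other genes. Over the 29 sham plp1b-high cells the 5 highest of 1670 ranked genes were zwi (0.58), CAB39L (0.56), HNRNPAB (0.54), RIPOR2 (0.51) and GPM6A (0.50), the last a relative of the proteolipid genes. In lesion plp1b-high cells their correlations with cahz were -0.24, -0.04, -0.25, 0.51 and 0.43, so RIPOR2 and GPM6A had the same sign in both groups. None of the 10 genes ranked highest over all cells was among the 5 highest within either group's plp1b-high cells, but lists this short say little of the rest. The 10 ran from 0.18 (wnk4b) to 0.45 (proza) in sham and from -0.21 (stxbp6l) to 0.72 (tpm4a) in lesion plp1b-high cells. The 95th percentile of the ranked genes was 0.30 in sham and 0.42 in lesion, so some of the 10 lay above it. Over 17 lesion plp1b-high cells the highest of 2828 genes were si:ch211-195b15.8 (0.82), oclna (0.81), RNF175 (0.78), EIF1 (0.77) and OLIG2 (0.73). OLIG2 stood at 0.10 over the sham plp1b-high cells.

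The sham plp1b-high cells with little cahz were not spread evenly over the plate. In plate columns 1, 2, 3 and 5 every one of 20 cells had cahz, from 200 to 4262 CPM with a median of 1469 CPM. In columns 4 and 6, 6 of 9 cells had under 10 CPM, and the 9 cells ran from 0 to 1685 CPM with a median of 6.86 CPM. These 9 cells were deeper, at a median of 715068 gene reads against 530590, had a median of 248 CPM of car15 against 153 CPM, and were close to the others in plp1b (43246 against 49053 CPM) and mbpa (34414 against 33498 CPM). In lesion, 3 of 4 plp1b-high cells in column 10 and the cell in column 12 had no cahz read, beside 1 of 4 in column 8 and 1 of 3 in column 9, and all 5 cells of columns 7 and 11 had cahz. The labels say nothing of plate columns beyond the well, and the cords of the group were pooled. Whether columns 4 and 6 held another sort was not tested. Without columns 4 and 6, a choice made after seeing these values, cahz was detected in 20 of 20 sham plp1b-high cells and the log2 ratio in plp1b-high cells was -2.14.

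**Figure D5:**
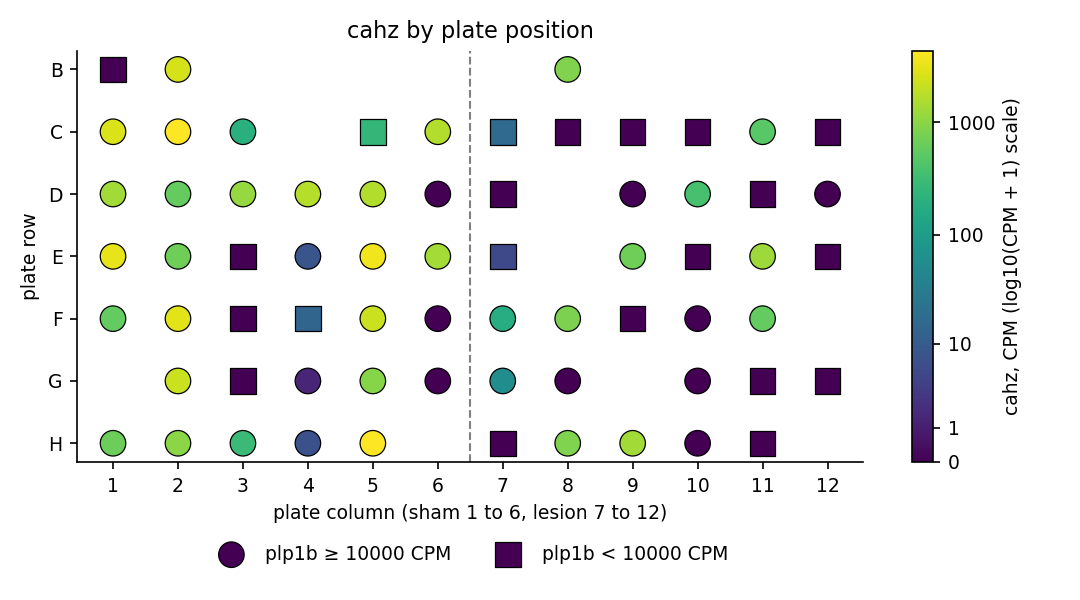
cahz in every cell by plate row and column, as the colour of each point on a log10(CPM + 1) scale, with circles for plp1b-high and squares for plp1b-low cells and a dashed line between the sham columns (1 to 6) and the lesion columns (7 to 12). The sham plp1b-high cells under 10 CPM, in dark colours, all lie in columns 4 and 6.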

How the data were processed

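Each sample was 1 sorted cell. The authors deposited raw read counts per gene, 1 column a cell, with no normalization. Per the submitters' processing notes, bcl2fastq 2.19.1, GSNAP and featureCounts 1.6.2 were used with GRCz10. Per the file headers, featureCounts was version 1.6.3, took genes of Ensembl release 87, ignored strand (-s 0) and needed a mapping quality of at least 1, so antisense partners and near-identical copies are uncertain. No library kit is given in the sources used here. The 92 spike-ins (71 reads) were left out of totals, which ranged from 245408 to 771417 gene reads per cell.

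A name table gave symbols to 26433 gene IDs, printed as spelled there, some after the human gene. Of 382 list symbols, 149 had no match. All 67 cells passed 10000 reads and 500 genes; doublets were not called, given the few cells. Counts were scaled to CPM per cell, or summed per group and scaled, with Python 3.11.15, pandas 2.3.3 and scipy 1.17.1. Ratios are lesion over sham on the log2 scale, with 1 CPM added to each level. A gene was measured with at least 50 reads in both groups together and detection in at least 3 cells. Sums carry Poisson and shares Clopper-Pearson 95% intervals. No p-value was computed. The summed ratios and the likeness ranking were tested on simulated Poisson counts without plp1b classes. Detection shares and intervals were not tested in this way.

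The members, lists and classes were chosen with earlier results of these data known. Named are cahz, plp1b, the carbonic anhydrase, globin and erythroid genes with a read, the 4 most abundant measured genes of the myelin and transporter lists (1 of each is not reported here), the 10 genes most like cahz over all cells and the 5 most like it in sham plp1b-high cells; myelin genes past 2-fold, the lesion likeness genes and other names were chosen after their values were seen, and for lists of other cell types mainly counts are given. Alternatives were TMM factors (edgeR 4.0.16), DESeq2 1.42.0 size factors, other totals, priors, cell weights, thresholds, plate rows and left-out cells.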

Additional observations from a re-analysis of the deposited data

How the results depend on the processing

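No paired analysis was possible because each group was 1 pool of cells and replicate numbers only name cells. The cahz ratio, for which the gene was picked, stayed below 0 and past 2-fold under all 16 alternatives over all cells and all 19 in plp1b-high cells. Among the latter, a plp1b threshold of 5000 CPM and leaving out sham cell 34 kept the same plp1b-high cells and so could not move it. Over all cells the log2 ratio (-2.32) was -2.57 with TMM factors, -2.63 with DESeq2 size factors, -2.48 with totals without the 50 most abundant genes, -2.43 without the highest cell of each group, -2.59 in plate rows B to E, -1.97 in rows F to H, -2.21 without cells of over 5000 genes, -2.72 without plate columns 4 and 6, and -9.39 from medians of cells, since the lesion median was 0. Leaving out single cells gave -2.54 to -2.18. In plp1b-high cells (-1.67) it was -1.84 with TMM, -1.77 with DESeq2, -1.76 without the highest cells, -1.53 in rows B to E, -1.57 without cells of over 5000 genes, -1.60 with mbpa in place of plp1b, -2.14 without columns 4 and 6, and -1.86 to -1.54 leaving out single cells. TMM moved the median ratio of all genes by -0.24 over all cells and -0.16 in plp1b-high cells, and over all cells DESeq2 moved it by -0.30 and totals without the 50 most abundant genes by -0.15. These scalings multiply all genes of a group alike, so cahz relative to that median is the same apart from the added 1 CPM. Detection in sham plp1b-high cells became 100% without columns 4 and 6, and in lesion plp1b-low cells 0% at 10 or more reads and in rows F to H. With each cell thinned to 301650 reads, leaving out 4 sham and 3 lesion cells, it was 76.9% in sham and 64.7% in lesion plp1b-high cells. No cell with cahz (0) had 5 or more globin reads. Of the 10 genes most like cahz, 6 were shared with the ranking by Pearson correlation of log2(CPM + 1), and 0 were among the 5 highest within sham or within lesion plp1b-high cells. Over all cells CA10 (ENSDARG00000052644, 1.02) was 0.81 with TMM, under 2-fold, and 2.11 without the highest cells, with 1 read left in sham. Also over all cells, car15 (-0.98) was -1.23 with TMM, past 2-fold, and CA5B (2.70) was 2.47 with TMM and 3.95 without the highest cells. Without the 2 cells with a globin read the cahz ratios were -2.28 over all cells and -1.69 in plp1b-high cells, where 1 such cell lay, and without sham cell 34 the ratio over all cells was -2.35. The causes of these moves were not tested. Both groups came from 1 pool each, so the spread between fish is unknown.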
